A study of Mus musculus with 6 samples.

Results

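The genes described here are 9 adhesion molecules through which B cells contact T cells, stromal cells and follicular dendritic cells: *Icam1*, *Icam2*, *Itgal*, *Itgb2*, *Itga4*, *Itgb1*, *Itgb7*, *Cd44* and *Itgax*. They were chosen by name, all 9 have a row among the 24499 genes of the count table, and all 9 passed the filter on low counts. RNA-seq was performed on day 3 in vitro germinal center B cells (iGCBs) in 3 cKO and 3 control libraries from mice on the C57BL/6J background. The study calls them biological replicates, and the sources used here do not say whether each came from a single mouse. The cKO mice carry floxed *Eif3e* alleles (*Eif3e* fl/fl) with the *Cγ1*Cre driver and the Cre-dependent reporter *Rosa26-YFP* LSL. The controls are labelled as control, with cgWT in their library names, and their other alleles are not given for this experiment. Both groups were sorted for YFP, so the sorted cells of both carry the Cre and the reporter. The sources used here do not give the age of these mice. *Cγ1*Cre is driven from the Ig γ1 heavy chain locus, which is transcribed in activated B cells, so deletion begins with activation. Naïve B cells, isolated from the spleen by depleting cells that carry CD43, CD9, CD5, TER119 or CD93, were cultured on 40LB cells, a BALB/c 3T3 fibroblast line that expresses CD40L and BAFF and was irradiated at 120 Gy, with IL-4 at 1 ng/ml. No T cells or follicular dendritic cells were added, and the libraries report RNA levels, not the contacts themselves.

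Integrins are paired receptors of 1 α and 1 β chain, and a chain reaches the cell surface only with a partner. αL (*Itgal*) and β2 (*Itgb2*) form LFA-1, whose ligands are ICAM-1 and ICAM-2. α4 (*Itga4*) pairs with β1 (*Itgb1*) to form VLA-4, which binds VCAM-1 and fibronectin, or with β7 (*Itgb7*) to form the receptor for MAdCAM-1. αX (*Itgax*, CD11c) also pairs with β2. CD44 is a receptor for hyaluronan. LFA-1 and VLA-4 hold germinal center B cells on follicular dendritic cells, which display ICAM-1 and VCAM-1, and ICAM-1 on B cells is bound by LFA-1 on T cells.

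*Icam1*, *Cd44* and *Itgb1* rose in cKO iGCBs, and the sequences around their transcription starts are shown because these are the regions at which their transcription begins. Each run is the window from 250 bases before to 50 bases after the start in RefSeq on GRCm38.p6, read along the gene's own strand. Capitals mark matches to 5 short motifs searched on both strands: GGAANTTCC (an NF-κB type site), TGANTCA (AP-1), TTCNNNGAA (STAT), GGGCGG (the GC box, which reads CCGCCC when on the other strand) and TATAAA (the TATA box). The *Icam1* window is chr9:21015690-21015989 on the plus strand, that of *Cd44* is chr2:102901616-102901915 on the minus strand, and that of *Itgb1* is chr8:128685404-128685703 on the plus strand.
Icam1: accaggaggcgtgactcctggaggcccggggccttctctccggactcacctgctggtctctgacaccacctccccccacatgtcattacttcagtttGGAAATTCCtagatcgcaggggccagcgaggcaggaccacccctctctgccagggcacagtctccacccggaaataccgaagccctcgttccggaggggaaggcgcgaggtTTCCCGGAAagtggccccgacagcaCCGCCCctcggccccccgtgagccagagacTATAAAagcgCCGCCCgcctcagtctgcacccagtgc
Cd44: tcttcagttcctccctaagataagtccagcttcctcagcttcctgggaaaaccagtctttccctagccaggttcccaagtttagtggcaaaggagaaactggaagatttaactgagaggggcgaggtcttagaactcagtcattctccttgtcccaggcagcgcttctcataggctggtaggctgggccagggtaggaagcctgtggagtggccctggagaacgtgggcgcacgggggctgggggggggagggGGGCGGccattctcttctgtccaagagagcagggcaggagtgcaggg
Itgb1: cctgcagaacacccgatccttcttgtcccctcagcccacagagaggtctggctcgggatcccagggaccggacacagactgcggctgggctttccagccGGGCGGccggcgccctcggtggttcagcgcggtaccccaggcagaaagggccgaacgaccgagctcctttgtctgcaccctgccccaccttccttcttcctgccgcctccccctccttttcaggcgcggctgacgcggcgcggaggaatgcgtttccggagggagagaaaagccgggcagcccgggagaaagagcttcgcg

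The *Icam1* window held GGAAATTCC beginning 153 bases before the start, TTCCCGGAA beginning 42 bases before it, a GC box on the opposite strand at 17 bases before and another at 23 bases after it, and TATAAA at 13 bases after it. None of these matches overlapped another. GENCODE M21 places the start of *Icam1* 45 bases further downstream than RefSeq, so these distances depend on the annotation. *Cd44* had a GC box 3 bases after its start and *Itgb1* had one 151 bases before its start, and neither window held another of the 5 motifs. Of the 32851 promoter windows of the same length, 0.928% held GGAANTTCC, 8.3% TTCNNNGAA, 35.7% GGGCGG, 13.6% TATAAA and 7.81% TGANTCA. Windows were found for 6 of the 9 genes. That of *Itga4* held a GC box, that of *Itgax* TGAGTCA, and that of *Itgb7* none of the motifs. A match is a description of the letters in the window.

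*Icam1* lies on chromosome 9 of GRCm38 from 21015985 to 21028817, *Icam2* on chromosome 11 from 106377656 to 106388075, *Itgal* on chromosome 7 from 127296260 to 127335138, and *Itgax* on the same chromosome from 128129547 to 128150657. *Itgb2* lies on chromosome 10 from 77530252 to 77565708 and *Itgb1* on chromosome 8 from 128685654 to 128733200. *Itga4* spans 79255426 to 79333123 and *Cd44* spans 102811141 to 102901665, both on chromosome 2, and *Itgb7* spans 102215995 to 102231944 on chromosome 15. *Icam2*, *Itgb7* and *Cd44* are on the minus strand. All are protein-coding genes in GENCODE M21. *Itga4* overlaps *Cerkl* on the opposite strand, and *Icam1* and *Cd44* overlap annotated noncoding genes on the opposite strand. The sources used here do not say whether strand was used in counting, so reads from such pairs may not be separated.

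Total estimated counts ranged from 39079582 to 45504570 per library, and at these totals 3 counts correspond to 0.0659 to 0.0768 CPM, which are counts per 1000000 counts of the library. Log2 CPM correlated across genes at 0.964 to 0.972 within a group and at 0.936 to 0.946 between groups, where genes are not independent replicates. The cKO libraries held *Eif3e* at 158 ± 13.1 CPM and the control libraries held it at 406 ± 16.5 CPM (SD, n = 3 each), so 39% of its RNA level remained. *Xist* was high in 1 of 3 cKO and 2 of 3 control libraries, so libraries of both sexes occur in each group. All 10 B cell markers in the table were detected and summed to 4833 to 5144 CPM over the 6 libraries. Every 1 of them differed between the groups: 5 were higher in cKO (50%, beside 24.1% of all genes) and 5 were lower (50%, beside 24.5%). Among T and NK cell markers, *Cd3e*, *Ncr1* and *Nkg7* were at 0 counts in every library, and the list summed to 3.32 to 4.50 CPM in cKO and 4.76 to 9.59 CPM in control. Of 3 tested, 1 was higher (33.3%, beside 24.1% of all genes) and 1 was lower (33.3%, beside 24.5%). Among myeloid and dendritic cell markers, *Cd14*, *C1qc*, *Siglech*, *Ly6g*, *S100a8* and *S100a9* were at 0 in every library. The list summed to 48.0 to 61.2 CPM in cKO and 51.6 to 57.2 CPM in control, mostly from *Flt3* and *Zbtb46*. Of 6 tested, 2 were higher (33.3%, beside 24.1% of all genes) and 1 was lower (16.7%, beside 24.5%). Fibroblast feeder markers were present: they summed to 123 to 152 CPM in cKO and 96.2 to 173 CPM in control, and *Col1a1*, a collagen chain of fibroblasts, had 1576 to 1850 counts in cKO and 1229 to 2903 in control libraries. Of the 19 fibroblast markers tested, 3 were higher (15.8%, beside 24.1% of all genes: *Fn1*, *Col5a1* and *Fbn1*, the last at 0 counts in all 3 control libraries) and 1 was lower (*Lox*, 5.26%, beside 24.5%), while *Postn* and *Lum* were at 0 throughout.

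Values below are CPM scaled with TMM factors, and an adjusted p is by Benjamini-Hochberg over the 13296 genes tested with edgeR's quasi-likelihood test of cKO against control. Because these are bulk libraries, fewer cells of a type and less RNA per cell cannot be told apart. Of the 9 adhesion genes, *Icam1*, *Cd44* and *Itgb1* rose, *Itgb2*, *Icam2* and *Itgb7* fell, and *Itgal*, *Itga4* and *Itgax* did not pass the test. This is 66.7% of the genes, beside 48.6% of all genes tested. The 3 that rose stand beside 24.1% of all genes and the 3 that fell beside 24.5%. With a fold change over 1.5 required as well, *Icam1* and *Cd44* were higher and *Itgb2* was lower, which is 33.3% of the genes beside 21.0% of all genes (10.4% higher and 10.6% lower). The median log2 fold change was −0.0956 over the 9 genes and −0.00402 over all genes, and the median absolute log2 fold change was 0.569 over the 9 genes and 0.352 over all. For 7 of the 9 genes, or 77.8%, no cKO library fell within the control range or the reverse, beside 58.7% of all genes.

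**Figure D1:**
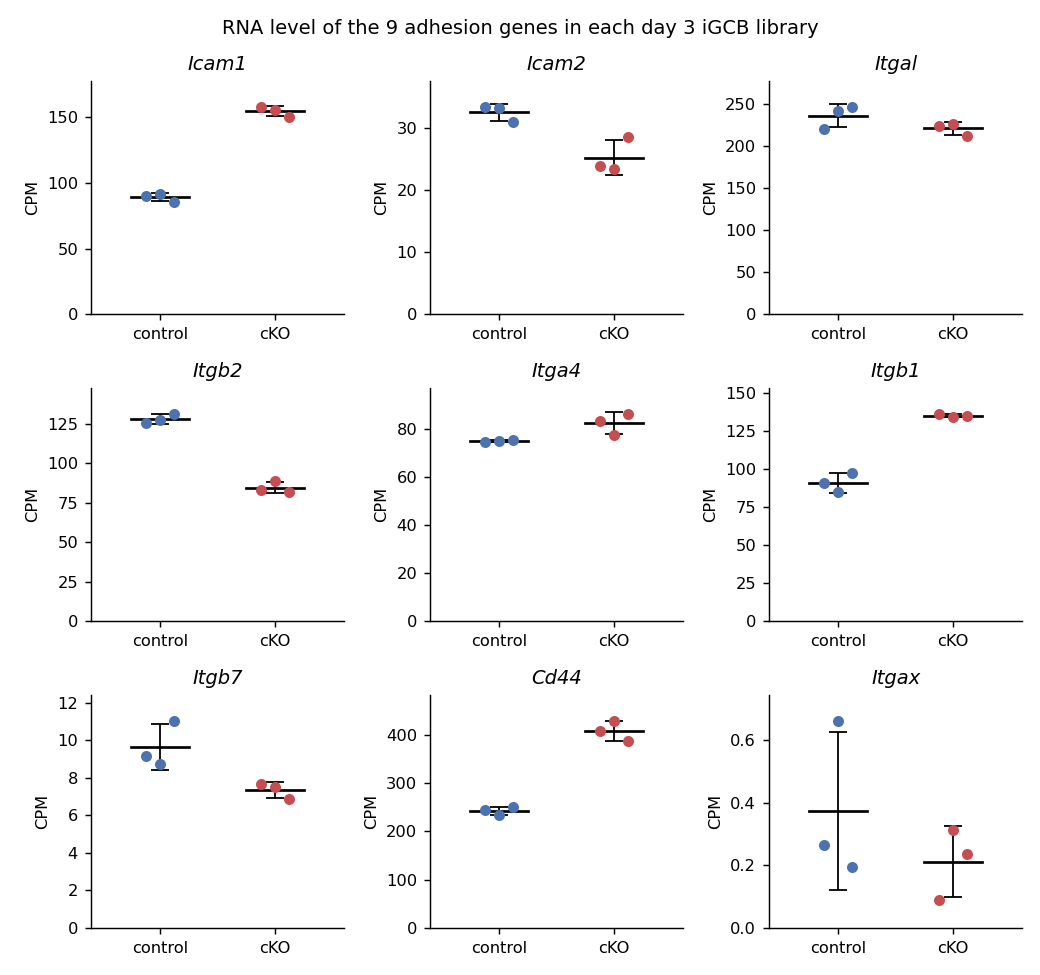
RNA level (CPM, vertical axes starting at 0) of each of the 9 adhesion genes in the 3 control (blue) and 3 cKO (red) libraries, with the group mean (bar) and SD (whiskers). The cKO points of *Icam1*, *Cd44* and *Itgb1* lie above all control points, those of *Itgb2*, *Icam2* and *Itgb7* lie below them, and the groups overlap for *Itgal* and *Itgax*.

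The ligands of LFA-1 moved in opposite directions. *Icam1* was at 158, 156 and 150 CPM in cKO replicates 1, 2 and 3 and at 90.4, 91.5 and 85.6 CPM in control replicates 1, 2 and 3. The lowest cKO library was above the highest control library, and *Icam1* rose 1.73-fold (log2 fold change 0.79, standard error 0.0524, adjusted p = 2.73e-06). *Icam2* was at 23.9, 23.4 and 28.5 CPM in cKO and at 33.4, 33.3 and 31.0 CPM in control replicates 1, 2 and 3. Every cKO library was below every control library, with cKO replicate 3 nearest to them, and *Icam2* fell to 77.6% of its control level (log2 fold change −0.37, standard error 0.0979, adjusted p = 0.0107). Taken within each library, the ratio of *Icam1* to *Icam2* was 2.62 ± 0.191 on the log2 scale in cKO and 1.45 ± 0.0165 in control (SD, n = 3 each), a 2.24-fold difference with no overlap between the groups. The smallest p that a two-sided exact permutation test allows for 3 libraries against 3 is 0.1, and this ratio reached it (0.117 after adjustment over the 7 ratios compared).

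The chains of LFA-1 itself moved unequally. *Itgal*, the α chain, was at 224, 226 and 212 CPM in cKO and at 220.2, 241 and 246 CPM in control replicates 1, 2 and 3. The groups overlapped and *Itgal* did not pass the test (log2 fold change −0.10, adjusted p = 0.187). The 95% confidence interval of its fold change ran from 0.858 to 1.02, so a fall of the size seen in its partner lies outside it. *Itgb2*, the β chain that all β2 integrins share, was at 83.0, 88.9 and 82.1 CPM in cKO and at 126, 127 and 131 CPM in control replicates 1, 2 and 3. The cKO libraries were all below the control libraries, and *Itgb2* fell to 66.0% of its control level (log2 fold change −0.60, standard error 0.0544, adjusted p = 1.51e-05). Its change, 1.51-fold, sits just past the 1.5-fold limit: it fell short of the limit without cKO replicate 1, cKO replicate 3 or control replicate 3, at log2 fold changes of −0.58, −0.58 and −0.58, and with the fibroblast marker level as a covariate, at −0.56. The log2 ratio of *Itgal* to *Itgb2* within a library was 1.43, 1.35 and 1.37 in cKO and 0.81, 0.92 and 0.91 in control replicates 1, 2 and 3. Every cKO library had more *Itgal* per *Itgb2* than every control library, by 1.42-fold (exact permutation p = 0.1, adjusted 0.117).

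*Itgax*, the other α chain of β2 among these genes and a marker of dendritic cells and of some activated B cell subsets, was close to the limit of detection. It had 4, 14 and 10 counts in cKO and 12, 26 and 8 counts in control replicates 1, 2 and 3. The groups overlapped, and the 95% confidence interval of the fold change, from 0.183 to 1.79, leaves its direction undetermined at this depth (log2 fold change −0.81, adjusted p = 0.399). *Itgam*, a further α chain that pairs with β2, was as low, at 0.180 ± 0.0776 CPM in cKO against 0.385 ± 0.146 CPM in control (SD, n = 3 each, adjusted p = 0.204).

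Of the chains of the α4 integrins, the shared α chain did not pass the test and the alternative β chains moved in opposite directions. *Itga4* was at 83.4, 77.4 and 86.2 CPM in cKO and at 74.6, 74.7 and 75.4 CPM in control replicates 1, 2 and 3. The cKO libraries all lay above the control libraries, which were within 1 CPM of each other, but the difference of 1.10-fold missed the threshold (log2 fold change 0.14, adjusted p = 0.0713, 95% confidence interval of the fold change 1.01 to 1.20). *Itgb1*, the β chain of VLA-4 and of most receptors for extracellular matrix, was at 136, 134 and 135 CPM in cKO and at 90.9, 84.6 and 97.6 CPM in control replicates 1, 2 and 3. The groups were far apart, and *Itgb1* rose 1.48-fold (log2 fold change 0.57, standard error 0.0607, adjusted p = 3.99e-05), just short of the 1.5-fold limit. It passed that limit without control replicate 3, at a log2 fold change of 0.62, and with the fibroblast marker level as a covariate, at 0.59, so under each of these settings *Itgb1* and not *Itgb2* was past 1.5-fold with *Icam1* and *Cd44*. *Itgb7* was at 7.67, 7.53 and 6.86 CPM in cKO and at 9.15, 8.73 and 11.1 CPM in control replicates 1, 2 and 3. It was low in all 6 libraries and lower in each cKO library, at 76.3% of its control level (log2 fold change −0.39, adjusted p = 0.0385). This call was lost in 9 of 17 alternatives, among them without cKO replicate 1 (adjusted p = 0.0621), 2 (0.0768) or 3 (0.0977) and without control replicate 1 (0.0629) or 3 (0.145).

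Within libraries, the balance of the β chains that compete for α4 shifted. Because *Itgb1* rose and *Itgb7* fell, a shift larger than that of either chain follows from the gene values and adds no separate result. The log2 ratio of *Itgb7* to *Itgb1* was −4.15, −4.15 and −4.30 in cKO and −3.31, −3.28 and −3.14 in control replicates 1, 2 and 3. The ratio was 1.94-fold lower in cKO, with no overlap. *Itga4* per *Itgb1* was 1.35-fold lower, from −0.28 ± 0.0966 in control to −0.72 ± 0.0734 in cKO on the log2 scale, and *Itga4* per *Itgb7* was 1.43-fold higher, from 2.96 ± 0.172 to 3.48 ± 0.150 (SD, n = 3 each). *Icam1* per *Itgal*, the ligand and the α chain of its receptor, was 1.85-fold higher in cKO. Each of these 4 ratios had no overlap between groups and the smallest p the exact permutation test allows, 0.1, or 0.117 after adjustment. The ratio of *Itgax* to *Itgb2* overlapped (exact permutation p = 0.9). Most of these ratios combine genes that already differed between the groups, and the share of other gene pairs with no overlap was not computed.

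**Figure D2:**
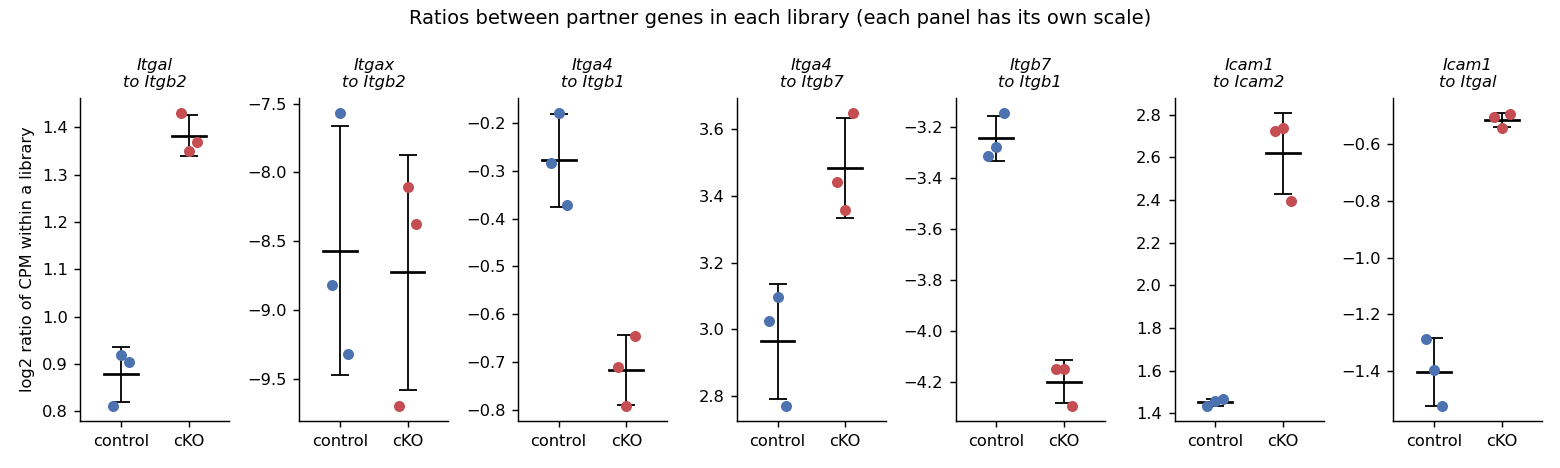
Log2 ratio of the CPM of partner genes within each control (blue) and cKO (red) library, with the group mean (bar) and SD (whiskers); each panel has its own vertical scale. The groups are separate for 6 ratios and overlap for *Itgax* to *Itgb2*, and the largest shift is that of *Icam1* to *Icam2*, 1.17 on the log2 scale.

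*Cd44* had the highest level of the 9 genes, and it rose. It was at 408, 430 and 389 CPM in cKO and at 244, 234 and 251 CPM in control replicates 1, 2 and 3. All cKO libraries lay above all control libraries, and the increase was 1.68-fold (log2 fold change 0.75, standard error 0.0548, adjusted p = 4.27e-06).

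*Cd44* is also the gene of this group with well-known splice forms, which differ in a block of variable exons coding for part of the extracellular stem. RefSeq transcripts matched to GENCODE M21 include a short form of 9 exons and a long form of 19 exons, and the short form lacks 10 exons, or 1245 bases, of the long one. The sequence across the exon junction that tells them apart is shown, with the end of the shared exon 5 in lower case (chr2:102853015-102853044, minus strand) and the first bases of the next exon in capitals. In the short form the next exon begins in chr2:102828581-102828610, and in the long form in chr2:102848753-102848782.
Cd44 short form: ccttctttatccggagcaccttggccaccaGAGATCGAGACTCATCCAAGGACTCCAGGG
Cd44 long form: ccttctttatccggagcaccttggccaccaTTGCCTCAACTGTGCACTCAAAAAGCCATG

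The short form took nearly all *Cd44* estimated counts in both groups: 95.2%, 95.1% and 97.5% in cKO and 95%, 93.9% and 88.7% in control replicates 1, 2 and 3. Its share was 95.9 ± 1.33% in cKO and 92.5 ± 3.38% in control (SD, n = 3 each), and the lowest cKO share, 95.09%, lay just above the highest control share, 94.98%. The 19-exon form held 1.43 ± 1.01% in cKO and 1.22 ± 0.534% in control. A form of 14 exons was assigned counts in 1 library of each group only, 4.35% in cKO replicate 2 and 9.53% in control replicate 3. A form of 12 exons held 3.56%, 0% and 0% in cKO and 3.38%, 4.68% and 1.19% in control replicates 1, 2 and 3, with overlapping groups and the largest fitted change in use of the 3 tested forms (−0.96 on the log2 scale). This value rests on single libraries: it was −8.35 without cKO replicate 1, the only cKO library with counts of this form, where the fit sets counts against 0 and gives no bound, and −0.55 without cKO replicate 2. Forms of 11 and 16 exons were assigned none. In edgeR's diffSpliceDGE test of transcript use, no *Cd44* transcript passed (adjusted p = 1.00 for each of the 3 tested), beside 0.615% of the 7646 transcripts tested. The 4 annotated *Itgal* transcripts did not pass either, and the most abundant held 54.3 ± 5.98% in cKO and 53.5 ± 7.73% in control (SD, n = 3 each). StringTie divides reads among forms that share exons, so these shares are estimates. The other 7 genes have 1 transcript each in the table.

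**Figure D3:**
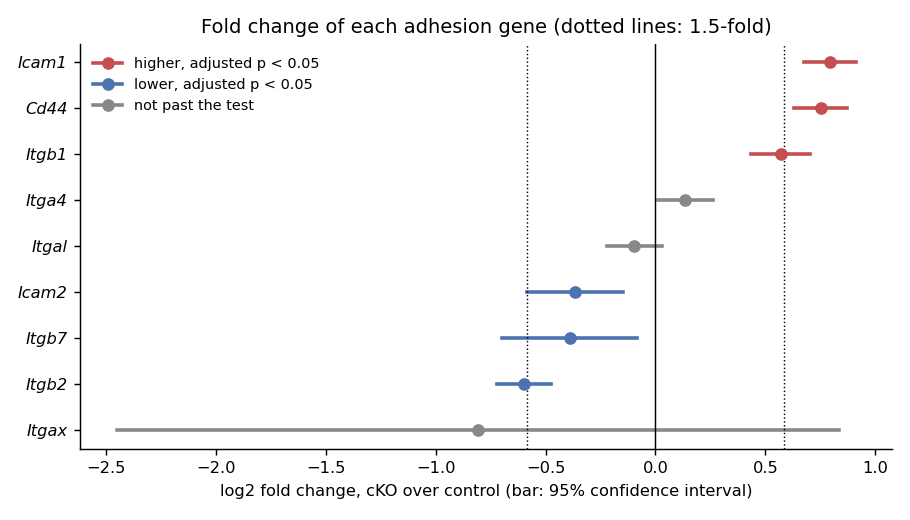
Log2 fold change of cKO over control for each of the 9 adhesion genes (points) with its 95% confidence interval (bars) from edgeR's quasi-likelihood fit, with dotted lines at 1.5-fold. *Icam1* and *Cd44* lie fully above the upper dotted line, *Itgb1*, *Itgb2* and *Itgb7* straddle a dotted line, and the interval of *Itgax* crosses both, from −2.45 to 0.84.

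To compare levels between genes, CPM were divided by transcript length in kilobases. In control iGCBs the order of levels was *Cd44* (86.5 ± 1.45 CPM per kilobase), *Itgal* (45.2 ± 2.64), *Itgb2* (43.2 ± 1.01), *Icam1* (35.2 ± 1.23), *Icam2* (25.4 ± 1.07), *Itgb1* (23.9 ± 1.70), *Itga4* (7.67 ± 0.0459), *Itgb7* (3.59 ± 0.461) and *Itgax* (0.0924 ± 0.0622), each as SD over n = 3. *Itgal* and *Itgb2* overlapped there, as did *Icam2* and *Itgb1*, and the other neighbours did not. In cKO iGCBs *Icam1* moved from the fourth to the second place, at 61.0 ± 1.49 CPM per kilobase, above *Itgal* at 42.3 ± 1.47. *Itgb1* moved up to 35.4 ± 0.305 and stood above *Itgb2*, which moved down to 28.5 ± 1.25 (SD, n = 3 each). No neighbours in the cKO order overlapped. The levels of *Itgal* and *Itgb2* were therefore close in control and differed in every cKO library, while *Itgb1* exceeded *Itga4* in both groups.

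**Figure D4:**
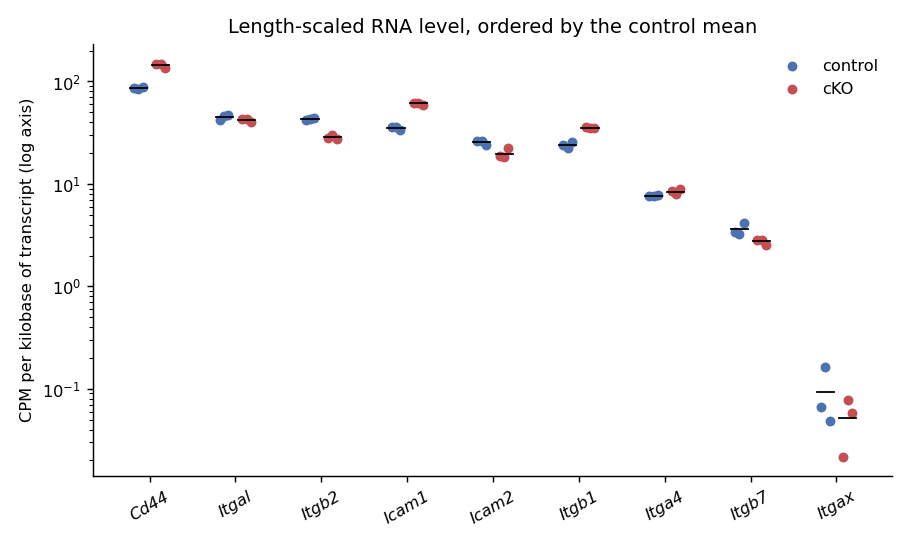
Level in CPM per kilobase of transcript (log axis) of the 9 adhesion genes in control (blue) and cKO (red) libraries, ordered by the control mean (short bars are group means). *Itgal* and *Itgb2* are level in control and apart in cKO, and *Icam1* lies above *Itgal* only in cKO.

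The partners of these receptors were measured as well. *Vcam1*, a ligand of VLA-4 made mainly by stromal and endothelial cells, had 121, 118 and 90 counts in cKO and 57, 33 and 44 counts in control replicates 1, 2 and 3. It was low throughout but higher in each cKO library, at 2.47 ± 0.303 against 1.06 ± 0.212 CPM (SD, n = 3 each, log2 fold change 1.22, adjusted p = 0.00569). *Madcam1*, the ligand of α4β7, was at 2.10 ± 0.195 CPM in cKO against 1.11 ± 0.269 CPM in control (SD, n = 3 each, log2 fold change 0.92, adjusted p = 0.0309). *Fn1*, which codes for fibronectin, was at 38.3, 46.8 and 35.7 CPM in cKO and at 22.4, 21.4 and 13.6 CPM in control replicates 1, 2 and 3. All cKO libraries were above all control libraries, and *Fn1* rose 2.10-fold (log2 fold change 1.07, adjusted p = 0.000651). *Fn1* is one of the fibroblast markers, of which 4 of 19 passed the test, beside 48.6% of all genes. *Col1a1* was at 1850, 1712 and 1576 counts in cKO and 2903, 2395 and 1229 in control replicates 1, 2 and 3, with overlapping groups. *Itgb1* and *Cd44* are also expressed by fibroblasts, and with the mean level of the fibroblast markers as a covariate their log2 fold changes were 0.59 and 0.78. That mean, wherever it is used as a covariate, includes *Fn1*, *Col5a1*, *Fbn1* and *Lox*, which themselves differed between the groups. It therefore partly follows the group and does not measure feeder cells alone, and the part of feeder cells in these values was not tested.

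Of 20 other integrin chains in the table, 11 were tested, 2 were higher (18.2%, beside 24.1% of all genes) and 2 were lower (18.2%, beside 24.5%), with a median log2 fold change of −0.12. *Itgb3*, the β chain that pairs with αV and αIIb, had the largest fall among integrin chains tested, 2.54-fold: from 155 ± 9.19 CPM to 61.0 ± 12.0 CPM (SD, n = 3 each, log2 fold change −1.34, adjusted p = 1.21e-05). Its α partner αV (*Itgav*) was at 44.9 ± 1.57 CPM in cKO against 40.0 ± 3.28 CPM in control (SD, n = 3 each, adjusted p = 0.116). The other calls were genes under 10 CPM: *Itga10* and *Itga2b* were higher and *Itgb5* was lower.

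The list of integrin activation and adaptor genes holds both activators and negative regulators. Of 37 tested, 19 were lower (51.4%, beside 24.5% of all genes) and 3 were higher (8.11%, beside 24.1%), with a median log2 fold change of −0.24. *Zyx* (zyxin, a focal adhesion protein) fell from 73.0 ± 2.48 to 34.7 ± 2.96 CPM and *Parvg* (γ-parvin, a partner of integrin-linked kinase) fell from 249 ± 3.21 to 144 ± 4.64 CPM (SD, n = 3 each, adjusted p = 4.02e-06 and 1.85e-06). *Rasa3*, an inactivator of the integrin activator Rap1, fell by 0.66 on the log2 scale (adjusted p = 1.90e-05), and *Sipa1*, another, fell by 0.46 (adjusted p = 0.000113), so the genes that fell included negative regulators, as well as *Sharpin*, an inhibitor of integrin activation, and *Cytip*, which restrains LFA-1 adhesion. Talin-1 (*Tln1*) and kindlin-3 (*Fermt3*), which bind integrin β tails and switch them on, fell by 0.22 and 0.25 on the log2 scale (adjusted p = 0.00339 and 0.0101). *Rasgrp2*, *Rassf5* and *Apbb1ip*, which act with Rap1 toward integrin activation, fell by 0.53, 0.40 and 0.18 (adjusted p = 0.000363, 0.00116 and 0.0117). *Rap1a* and *Rap1b* did not pass the test. The genes of these 3 sentences, *Sipa1*, *Sharpin* and *Cytip* were chosen for their role after their values were seen. *Itgb1bp1*, which codes for ICAP-1, a protein that binds the β1 tail and opposes its activation, rose from 34.8 ± 2.28 to 52.9 ± 1.56 CPM (SD, n = 3 each, log2 fold change 0.60, adjusted p = 0.000119). *Actn4* (α-actinin-4, an actin crosslinker) rose 1.25-fold (adjusted p = 0.000398).

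The list of ligands, linkers and sheddases of CD44 also holds genes outside these classes, such as *Sema4d* and *Hmmr*. Of its 16 tested genes, 4 were higher and 4 were lower (25% each, near the 24.1% and 24.5% of all genes). Their median log2 fold change was 0.0209. The 3 proteins of the ERM family, which link CD44 and ICAMs to actin, did not move together. Ezrin (*Ezr*) fell from 545 ± 23.9 to 286 ± 11.7 CPM (log2 fold change −0.93, adjusted p = 1.58e-06), and radixin (*Rdx*) rose from 136 ± 3.50 to 205 ± 1.24 CPM (log2 fold change 0.59, adjusted p = 7.03e-06; SD, n = 3 each). Moesin (*Msn*), named to complete the family after its values were seen, fell from 767 ± 6.35 to 635 ± 8.58 CPM (SD, n = 3 each, log2 fold change −0.27, adjusted p = 0.000343). *Srgn* (serglycin, a proteoglycan that CD44 can bind) and *Adam10* (a protease that sheds CD44) rose by 0.22 and 0.21 on the log2 scale (adjusted p = 0.0128 and 0.0124). *Sema4d* fell by 0.53 and *Hmmr*, another hyaluronan receptor, fell by 0.31 on the log2 scale (adjusted p = 1.51e-05 and 0.00338).

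Of 32 other adhesion ligands and receptors tested, 8 were higher (25%, beside 24.1% of all genes) and 12 were lower (37.5%, beside 24.5%), with a median log2 fold change of −0.13. The tetraspanins, membrane organizers that associate with integrins, were split. Of 7 tested, 3 were higher (*Cd81*, *Cd82* and *Cd63*, beside 24.1% of all genes) and 3 were lower (*Cd53*, *Cd37* and *Cd151*, beside 24.5%). *Cd9* did not pass the test. *Cd82* and *Cd81* rose by 0.36 and 0.20 on the log2 scale (adjusted p = 0.0006 and 0.00942), and *Cd53* fell from 439 ± 29.8 to 241 ± 9.92 CPM (SD, n = 3 each, adjusted p = 3.53e-06). *Emb* (embigin, a membrane glycoprotein) fell by 1.41 on the log2 scale and *Selplg* (PSGL-1, the ligand of P-selectin) fell by 0.84 (adjusted p = 4.96e-05 and 0.00019).

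**Figure D5:**
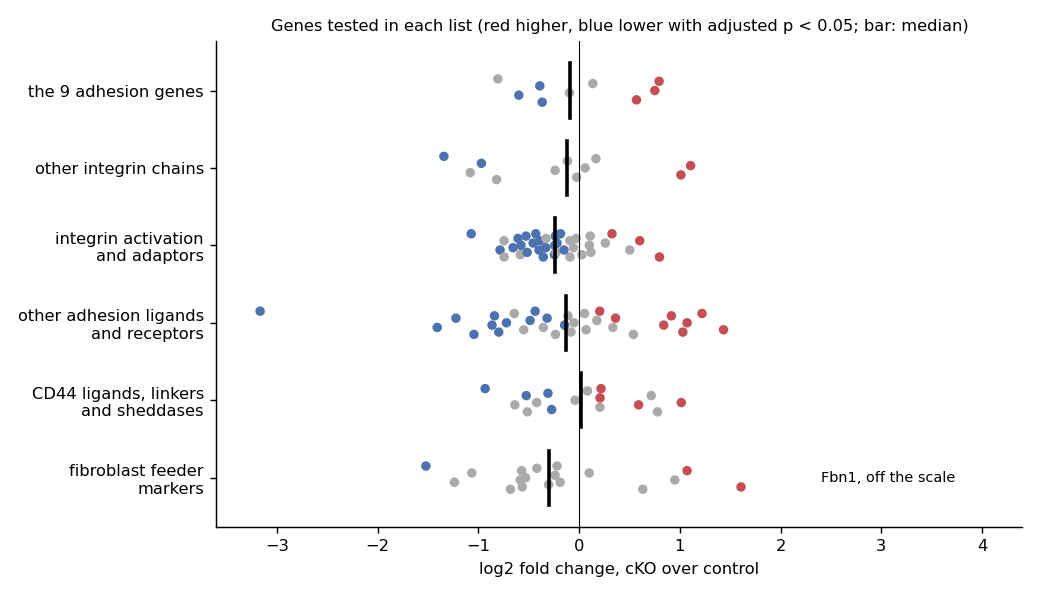
Log2 fold change of cKO over control for each tested gene of the 9 adhesion genes, 4 related lists and the fibroblast markers (1 point per gene, red higher and blue lower with an adjusted p under 0.05, grey not past the test; bars are list medians). The integrin activation and adaptor genes lie mostly left of 0, with a median of −0.24, while the 9 adhesion genes fall on both sides; *Fbn1*, at 0 counts in control, is off the scale.

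Markers of germinal center B cells and plasma cells also differed between the groups, and they are given beside the adhesion genes because germinal center B cells and plasma cells differ in their adhesion molecules. Of 8 germinal center markers, 4 were lower (50%, beside 24.5% of all genes) and 1 was higher (12.5%, beside 24.1%). *Gcsam* had 262 to 345 counts in cKO libraries and 1284 to 2531 in control libraries, *Mef2b* was also lower, and *Fas* rose 1.33-fold. Of 7 plasma cell markers tested, 5 were lower (71.4%, beside 24.5%) and 2 were higher (28.6%, beside 24.1%), with *Jchain*, *Xbp1* and *Prdm1* among the lower and *Irf4* and *Sdc1* (CD138, 14.2 ± 1.04 against 4.70 ± 0.852 CPM, SD, n = 3 each, adjusted p = 2.06e-05) the higher. The part of these shifts in the values of the adhesion genes was not tested.

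For the genes with the smallest p in each direction, the 3 genes with the most similar level pattern over the 6 libraries were found among 8513 genes of at least 10 CPM, by the root mean square difference of log2 CPM after subtracting the control mean. For *Icam1* these were *Slc12a2* (0.0316), *Aimp2* (0.0420) and *Hipk2* (0.0459). For *Itgb2* they were *Wdr1* (0.0313), *Plk4* (0.0322) and *Mysm1* (0.0362).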

How the data were processed

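RNA-seq of YFP+ iGCBs sorted on day 3 covered 3 cKO and 3 control libraries, grouped by the sample labels. The authors trimmed reads, aligned them with HISAT2 on mm10 (GRCm38), quantified them with StringTie and deposited estimated counts by gene and by RefSeq transcript, which prepDE computes from coverage and an assumed read length. These estimated counts are whole and not normalized, so rounding changed nothing; versions are not given in the sources used here. The general culture protocol gives a longer culture than the 3 days of the sample titles and RNA-seq methods. Libraries are polyA-selected.

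Genes were kept by filterByExpr (minimum count 10), which left 13296 of 24499, scaled by TMM and tested with edgeR 4.0.16 in R 4.3.3 (glmQLFit, glmQLFTest, no covariate, Benjamini-Hochberg, adjusted p under 0.05). The design assumed raw counts, and the same test was used for the estimated counts. Ratios used log2 CPM with a prior count of 0.5. Transcript use was tested with diffSpliceDGE. Scripts were tested on simulated data. Replicate numbers were not taken as pairs. Floors of 3 counts cover counting error only. Lengths and locations came from GENCODE M21 and promoter windows from RefSeq; 34669 of 36026 transcripts were matched to genes.

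The members and the lists of related and marker genes were chosen with earlier results of these data known. Named were the 9 genes, *Eif3e*, and the partners *Vcam1*, *Madcam1*, *Fn1* and *Itgam*. Up to 3 higher and 3 lower genes per list were named too (adjusted p under 0.05, mean of at least 10 CPM, largest change). For *Icam1* and *Itgb2* the 3 nearest patterns were named. Other names are given as marker values or to identify a count of 5 or fewer. Chosen after their values were seen were *Tln1*, *Fermt3*, *Rasgrp2*, *Rassf5*, *Apbb1ip*, *Rap1a*, *Rap1b*, *Sipa1*, *Sharpin*, *Cytip* and *Msn*. So were *Itgav*, *Sdc1*, *Cd63*, *Cd37*, *Cd151*, *Cd9* and those of the closing observations. Alternatives were DESeq2 1.42.0, other scalings, filters and covariates, halved counts, counts summed from transcripts, a replicate block and each library left out.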

Additional observations from a re-analysis of the deposited data

How the results depend on the processing

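The counts of adhesion genes kept within 1.5 times their reported values under all 17 alternatives of the test: 3 to 4 higher and 2 to 3 lower, and 2 to 3 past 1.5-fold, where testing directly against a 1.5-fold change left 2. With each library left out in turn these ranges were the same, and the log2 fold change of *Eif3e* ran from −1.43 to −1.32. *Icam1* (log2 fold change 0.77 to 0.81), *Cd44* (0.71 to 0.79), *Itgb1* (0.51 to 0.62), *Itgb2* (−0.63 to −0.56) and *Icam2* (−0.46 to −0.31, adjusted p from 0.0048 to 0.0462) passed under every alternative. *Itgb7* did not pass under 9 of 17: DESeq2 (adjusted p = 0.078), no filter on low counts (0.0751), the fibroblast marker level as a covariate (0.144), the replicate block (0.0655) and 5 of the 6 libraries left out (0.0621 to 0.145). *Itga4* passed only without cKO replicate 2 (adjusted p = 0.0481). The cause of these differences was not tested. *Itgax*, whose log2 fold change ran from −1.19 to −0.13, could not be fitted with 10 counts required in every library or with halved counts, and its ratio to *Itgb2* ran from −0.53 to 0.34 on the log2 scale with libraries left out. The other 6 ratios had no overlap between groups with a prior count of 2; leaving out a library could not have made them overlap.

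Nothing in the sources used here pairs the libraries, though the paper compared other measures of control and cKO iGCBs with paired t tests. Same-numbered libraries correlated at 0.00988, 0.0735 and 0.107 after subtracting group means, without every library correlating best with its own number. These values do not decide whether the libraries were paired. With the replicate number as a block, 3069 genes were higher and 3165 lower, beside 3204 and 3264 without it, and among the 9 genes it changed only the call of *Itgb7*. For ratios without overlap, pairing the libraries can give only 1 direction and tests nothing, and 0 member transcripts passed the test of transcript use with or without the block. The 12-exon form of *Cd44* had a log2 change in use of −4.73 with the block (unadjusted p = 0.0413, adjusted 1.00), and from −8.35 without cKO replicate 1 (unadjusted p = 0.0358, adjusted 0.740) to −0.55 without cKO replicate 2. The range of median log2 fold changes over all genes across scalings was within 0.1 of 0. Depth limits *Itgax*, and the number of libraries limits the ratios.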

Other observations

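*Epcam*, a homophilic adhesion molecule of epithelia that some lymphocytes also carry, had the largest fall among the adhesion ligands and receptors tested. It had 44, 74 and 32 counts in cKO and 455, 279 and 543 counts in control replicates 1, 2 and 3, a fall to 1.12 ± 0.465 from 10.1 ± 3.04 CPM (SD, n = 3 each, log2 fold change −3.17, standard error 0.315, adjusted p = 2.60e-05 in the edgeR fit). *Cd24a*, a sialoglycoprotein of developing and activated B cells, averaged 355 ± 22.1 CPM in cKO against 586 ± 79.4 CPM in control (log2 fold change −0.72, adjusted p = 0.000112), and *Pecam1*, which mediates contacts with endothelium, was at 29.5 ± 3.52 and 51.4 ± 4.87 CPM (log2 fold change −0.80, adjusted p = 0.000165; SD, n = 3 each). These genes were chosen after their values were seen.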
